A study of Mus musculus with 6 samples.

Results

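The response of wild-type mouse macrophages to tumour necrosis factor (TNF) was read from 2 of the 6 single-colour Agilent arrays of the series. It sets the array of wild-type (WT, TIARP+/+) peritoneal macrophages with TNFα against the array of WT peritoneal macrophages without that label. The mice were C57BL/6, thioglycollate medium had been given into the peritoneum 3 days before the cells were taken, and TNFα was given for 24 h. Hours in culture are given for the array with TNF only, so the effect of TNF and that of time in culture cannot be told apart. The labels number 3 mice on each array without saying whether their RNA was pooled. The matching pair from TIARP-deficient mice (KO, TIARP-/-, C57BL/6, same medium and same TNFα time) is given beside the WT pair, with which it shares no array. TIARP is the protein of Steap4, and both KO arrays carry the TIARP-/- label.

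Peritoneal macrophages elicited with thioglycollate are recruited phagocytes that clear debris and respond strongly to inflammatory signals. TNF binds the receptors Tnfr1 and Tnfr2, encoded by Tnfrsf1a and Tnfrsf1b, and adaptors of the Traf family pass the signal to the IκB kinases. These kinases mark the IκB inhibitors for degradation and so release NF-κB, which switches on chemokines, cytokines, survival factors and its own inhibitors. TNF is in turn one of the products that activated macrophages make themselves.

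With 1 array on either side there is no spread between replicates, so sizes are given and none was tested. Precision is limited by the number of arrays. A level is given as relative signal, the processed intensity of a probe divided by the 75th percentile of its array. That percentile was 489.9 intensity units without TNF and 432.1 with TNF. A gene was called higher or lower with TNF when its levels differed by at least 2-fold and the brighter of its signals was well above background. Where the dimmer of them was not, the difference is a lower bound and is given as "at least". These words are kept for genes past that rule of size. Signal was well above background for 62.2% of probes without TNF and 59.5% with TNF, and no spot was saturated on either array (0). The median SD between repeated spots of a probe was 0.08 on the log2 scale on both arrays, which describes scatter within an array and not between mice. Before scaling, 8 probes for spike-in control RNA had log2 differences that ran from -0.84 to 0.01.

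The macrophage label was checked against markers. The defining markers Adgre1 (relative signal 77.5 without and 76.1 with TNF), Cd68 (330 and 358), Lyz2 (278 and 276), Csf1r (229 and 343) and Itgam (43.1 and 42.5) were well above background on both arrays, and none was past the rule. Over the whole macrophage list 6 of 14 measured markers were lower with TNF (Fcgr1, C1qa, C1qb, C1qc, Mertk and Mrc1) and 1 was higher (Cd14). Other cells could be present in such a preparation. Of 12 measured neutrophil markers, Camp (0.123 and 2.21), Mmp9 (1.29 and 19.1) and S100a8 (21.6 and 64.6) were higher with TNF (Camp by 4.17 on the log2 scale, and 3.30 with normexp background correction) and none was lower, while Ly6g stood at 0.110 and 0.0633 and Cxcr2 at 0.0618 and 0.0453, and the summed relative signal of that list was 202 and 273. Mmp9 is described further among the proteases, and the part of neutrophils in these values was not tested. B-cell markers held 0 of 7 genes past the rule. Among the 10 mesothelial and fibroblast markers, Upk3b, Upk1b, Krt19 (log2 -2.36, and -1.36 with normexp) and Lum were lower with TNF. The summed relative signal of the list was 262 without and 249 with TNF. In bulk RNA, fewer cells of a type and less RNA per cell cannot be told apart.

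Of 21120 genes measured on at least 1 of the WT arrays, 982 (4.65%) were higher with TNF and 1282 (6.07%) were lower. The median log2 difference over all measured genes was 0.03. Decreases outnumbered increases at the 2-fold rule, but the largest differences were increases. At 8-fold or more there were 115 increases and 65 decreases, and at 32-fold or more 18 increases and 3 decreases. A bound stood behind 189 of the increases and 477 of the decreases. The split between directions moved with the processing: 43.4% of the called genes were higher, against 29.3% without scaling and 57.4% with normexp background correction. Normexp subtracts the local background, fits a model to the remainder and adds an offset of 50 intensity units, which is large beside dim signals. No scaling shifted the median of all genes to -0.16. With normexp, 48 of 202 named genes past the rule had differences smaller by over 1.5 times, and this is given beside those described. In the plot of level against difference, the called decreases crowd the dim end.

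**Figure D1:**
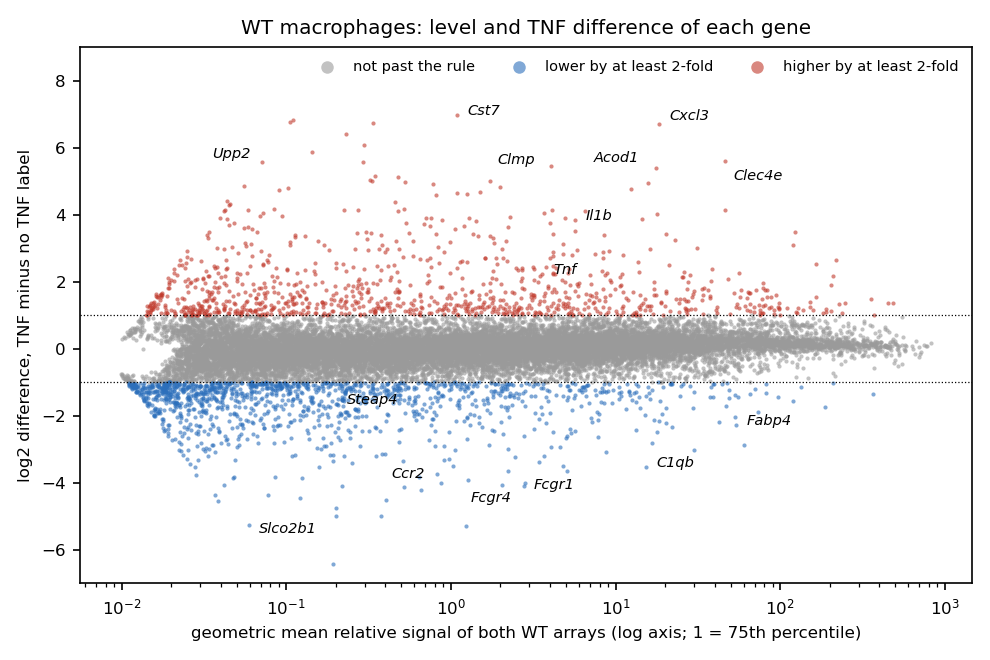
Each point is 1 of the 21120 measured genes in WT macrophages, with the geometric mean relative signal of both arrays on the horizontal log axis and the log2 difference, TNF minus no TNF label, on the vertical axis. Dotted lines mark 2-fold, red marks the 982 genes higher and blue the 1282 lower by the rule of size, and for genes measured on 1 array only the difference is a bound.

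Chemokines that attract neutrophils included the largest increase among brighter genes, meaning those with an approved-style symbol, signal well above background on both arrays and a mean level above the median of such genes. Cxcl3, a ligand of the neutrophil receptor Cxcr2, had a relative signal of 1.80 without and 186 with TNF, a 103-fold difference (log2 6.69). Its probe lies at chr5:91216694-91216753 (mm9). In the KO pair the same probe read 2.26 and 91.1, a 40.4-fold difference. Cxcl2, a close relative, went from 1.26 to 13.6 (10.7-fold), and in KO cells the difference was 3.40-fold. Cxcl1, the third gene of this cluster, stood at 3.81 and 7.80, at the edge of the rule with a log2 difference of 1.03. It was no longer past 2-fold under 5 alternatives, where its log2 difference ran from 0.85 to 0.99, and in KO cells it stood at 0.41. Of 6 measured members of the list for the ELR CXC class, which acts on neutrophils, 3 were higher and 0 lower. The list median was 0.96. The list also held the platelet factor gene Pf4 (0.64), which lacks the ELR motif and is not of that class. Neither Pf4 nor Cxcl5 (0.88) was past the rule.

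The sequence just before the start of each of these 3 chemokine genes is shown because all 3 hold the NF-κB motif there. The motif searched was GGG, then 3 bases of any kind, then TTCC, which on the other strand reads GGAA, 3 bases of any kind and CCC. The 120 bases before the start are given from RefSeq (GRCm38.p6), 5′ to 3′ on the strand of the gene, with every match in capitals, and matches on opposite strands that overlap run together.
Cxcl3, chr5:90785981-90786100, + strand: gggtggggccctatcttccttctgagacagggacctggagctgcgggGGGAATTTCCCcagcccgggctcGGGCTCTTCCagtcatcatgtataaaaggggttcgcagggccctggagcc
Cxcl2, chr5:90903779-90903898, + strand: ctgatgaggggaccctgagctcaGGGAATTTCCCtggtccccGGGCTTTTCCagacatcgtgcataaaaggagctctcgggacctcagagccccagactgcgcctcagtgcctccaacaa
Cxcl1, chr5:90891125-90891244, + strand: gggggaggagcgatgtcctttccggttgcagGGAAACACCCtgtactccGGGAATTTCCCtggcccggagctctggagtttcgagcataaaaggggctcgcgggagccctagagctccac
Each window holds 3 matches in 2 separate stretches. The farthest match begins 73 bases before the start in Cxcl3, 97 in Cxcl2 and 89 in Cxcl1. The 3 genes thus share the motif while their differences with TNF were 103-fold, 10.7-fold and 2.05-fold.

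Other chemokines differed in direction. Ccl9, a macrophage chemokine, went from a relative signal of 68.5 to 394, a 5.75-fold difference, and in KO cells the difference was 5.31-fold. Ccl22 (0.0241 and 0.372, 15.4-fold) and Ccl17 (0.0992 and 1.09, 11.0-fold), both ligands of the T-cell receptor Ccr4, were higher from dim signals, as they were in KO cells (with normexp, log2 1.81 and 2.46 in WT cells). Ccl3, a ligand of Ccr1, was higher too (16.4 and 54.3, 3.32-fold). Ccl12, a ligand of Ccr2, was at least 5.74-fold lower, a call lost with normexp background correction. Thus 4 of 12 measured CC chemokines were higher and 1 lower, with a median of 0.46, and Ccl2 (0.55), Ccl4 (0.37) and Ccl5 (0.27) were not past the rule. Cxcl10, an interferon-inducible attractant of T cells, went from 1.56 to 10.2 (6.53-fold). It was alone past the rule among 8 measured members of the list of non-ELR CXC chemokines. That list also held Cx3cl1, a chemokine of another class.

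Receptors for chemoattractants moved both ways, with 5 of 17 higher and 5 lower. Fpr2, a formyl peptide receptor that senses bacterial and damage products, went from 2.84 to 86.6, a 30.5-fold difference that was 16.8-fold in KO cells. Its neighbour Fpr1 went from 5.53 to 33.5 (6.07-fold). The atypical chemerin-binding receptor Ccrl2 (5.23-fold), the leukotriene B4 receptor gene Ltb4r1 (2.43-fold) and Ccr3 (2.20-fold) were also higher. Ccr2, the receptor that brings monocytes out of the marrow, stood at 2.99 without and 0.226 with TNF, with log2 differences of -3.73 in WT (-3.12 with normexp) and -3.64 in KO cells. C3ar1, the receptor for the complement fragment C3a, went from 11.1 to 1.21 (9.18-fold lower). Ackr3 and Cxcr1 were also lower, the latter by a bound lost with normexp background correction. The list median of -0.45 changed sign under other filters on dim signal, as given in the closing section.

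Among cytokines, Il1b, the secreted fever-inducing interleukin, had a relative signal of 1.50 without and 21.4 with TNF, a 14.3-fold difference (17.3-fold in KO cells, from 4.39 to 75.9). Il1a, its membrane-associated relative, differed by 10.6-fold, and Il1rn, the antagonist of their receptor, by 6.77-fold. The genes of both agonists and of their antagonist were therefore higher together. Tnf itself went from 1.67 to 7.76, a 4.65-fold difference (log2 2.22) that was 3.11-fold in KO cells. Lif, a cytokine of the Il6 family, stood at 0.152 and 1.42, a 9.34-fold difference in WT cells, whereas its log2 difference in KO cells was 0.43 (WT with normexp 2.43). Il6 was not past the rule (1.73 and 2.08, log2 0.27). The subunit gene Il12a was higher by at least 5.68-fold and Il12b by 2.53-fold. Il10, which restrains macrophages, was lower (log2 -1.45, a call lost with normexp background correction), as was Il16 (-1.04). In all, 9 of 19 measured cytokines were higher and 2 lower, with a median of 0.94.

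Growth factor genes held further increases. Inhba, which encodes the activin A subunit, went from 1.66 to 19.1 (11.5-fold, and 19.5-fold in KO cells). The heparin-binding growth factor Hbegf was 4.52-fold and Pdgfb 3.44-fold higher. Hgf, the hepatocyte growth factor, was 5.38-fold lower (log2 -2.43, and -1.54 with normexp). Of 13 measured members 5 were higher and 1 lower, with a median of 0.86.

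The genes of the TNF receptors themselves were not past the rule. Tnfrsf1a stood at a relative signal of 44.3 without and 35.6 with TNF (log2 -0.31) and Tnfrsf1b at 17.0 and 31.5 (0.89). The adaptors and survival factors downstream of them held more calls. Traf1, which is recruited to Tnfr2, went from 3.11 to 22.8, a 7.33-fold difference (7.64-fold in KO cells). Traf5 (4.15-fold), the ubiquitin ligase gene Birc3 (3.80-fold) and the death receptor gene Fas (3.29-fold) were higher as well. Cflar, the inhibitor of caspase 8 activation, had a log2 difference of 2.24 by its reported probe, while its 3 other probes gave 0.29, 1.21 and 1.21. Tnfrsf11a, the receptor for the osteoclast factor Rankl, was lower (-1.12). Of 20 measured members 5 were higher and 1 lower, with a median of 0.28.

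The inhibitors of NF-κB were among the clearest increases in signalling genes. Nfkbie, an IκB gene, went from 3.35 to 25.1 (7.50-fold), and Nfkbia, the IκBα gene, from 42.2 to 148 (3.50-fold). Tnip1 (4.24-fold) and Tnfaip3, the A20 gene (2.78-fold), whose products restrain signalling upstream of the IκB kinases, were higher too, with Tnip3 (3.14-fold). Of the NF-κB subunits, Nfkb2 (3.95-fold) and Relb (3.14-fold), both of the non-canonical branch, were higher, whereas Nfkb1 (log2 0.77), Rela (0.49) and Rel (0.42) were not past the rule. In total 7 of 25 measured members were higher and 0 lower, with a median of 0.67. All 7 were also higher in KO cells, with log2 differences from 1.17 to 2.80.

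The 2 IκB genes are shown with the 120 bases before their starts, as for the chemokines, because each holds 1 match to the same motif, again in capitals.
Nfkbia, chr12:55492648-55492767, - strand: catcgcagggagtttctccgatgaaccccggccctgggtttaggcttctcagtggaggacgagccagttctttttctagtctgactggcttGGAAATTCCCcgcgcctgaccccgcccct
Nfkbie, chr17:45555580-45555699, + strand: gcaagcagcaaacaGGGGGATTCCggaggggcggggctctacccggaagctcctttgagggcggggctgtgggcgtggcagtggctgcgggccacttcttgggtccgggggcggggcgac
The match begins 29 bases before the start in Nfkbia and 106 bases before it in Nfkbie. Within 250 bases before the start, the motif was present in 10 of the 20 members of the NF-κB list that had a promoter entry, and 5 of these (Rel, Nfkbid, Chuk, Map3k7 and Cyld) were not past the rule while 5 were (Nfkb2, Nfkbia, Nfkbie, Tnfaip3 and Tnip1).

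Over all genes with a promoter entry (12960 of the 21120 measured), the NF-κB motif was present in 9.16% of the genes higher with TNF (59 of 644) and in 4.47% of those lower (34 of 760). It was present in 6.05% of all measured genes with an entry and in 4.65% of all 32851 promoters of the same length. For every motif a gene counts when any of its promoter entries holds a match, while the 32851 promoters are counted singly. Among genes at least 4-fold higher the share was 13.7% (25 of 182), and among those at least 4-fold lower it was 3.35% (6 of 179). The AP-1 motif TGANTCA, which reads the same on both strands, was in 9.32% of the higher and 9.34% of the lower genes, against 6.27% of all measured genes and 6.75% of all promoters. At 4-fold its shares were 17.0% of the higher (31 of 182) and 10.1% of the lower genes (18 of 179). The interferon motif, GAAA repeated with 2 bases of any kind between (TTTC on the other strand), was in 3.88% and 5.53%, against 3.39% of measured genes and 2.98% of all promoters, and at 4-fold in 4.95% of the higher and 6.70% of the lower genes. A match is a description of letters in this window and not a site of binding.

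Pattern receptors and lectins that sense microbes included several of the largest increases. Clec4e, the Mincle gene, whose product recognises mycobacterial glycolipid, went from 6.67 to 324, a 48.6-fold difference (28.1-fold in KO cells, from 13.7 to 385). Its probe lies at chr6:123232878-123232937 (mm9). Clec4n, the Dectin-2 gene, went from 41.2 to 349 (8.45-fold). Clec4b1 had a log2 difference of 3.38 by its reported probe but 0.25 by its other probe. Clec7a, the β-glucan receptor Dectin-1, was 2.35-fold higher. Of the lectins known from alternatively activated macrophages, Clec10a went from 12.6 to 2.06 (log2 -2.61) and Mrc1, the mannose receptor, from 16.2 to 3.75 (-2.11), while Mgl2 was not past the rule (48.6 and 48.2, -0.01). The alternative activation list as a whole had 3 of 15 members higher and 3 lower, with a median of -0.03. Of 17 C-type lectins 5 were higher and 4 lower. Tlr2 (4.90-fold) and its co-receptor Cd14 (3.50-fold) were higher, as was Irak3, an inhibitor of Toll-like receptor signalling (3.23-fold), whereas Tlr8 was lower (-1.80, and -1.11 with normexp). The Toll-like receptor list had 4 of 23 higher and 2 lower, with a median of 0.01.

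The plot of the largest differences shows the 15 increases and 15 decreases that were largest among brighter genes. All 15 increases, and all decreases but that of Pianp, were also past the rule in KO cells.

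**Figure D2:**
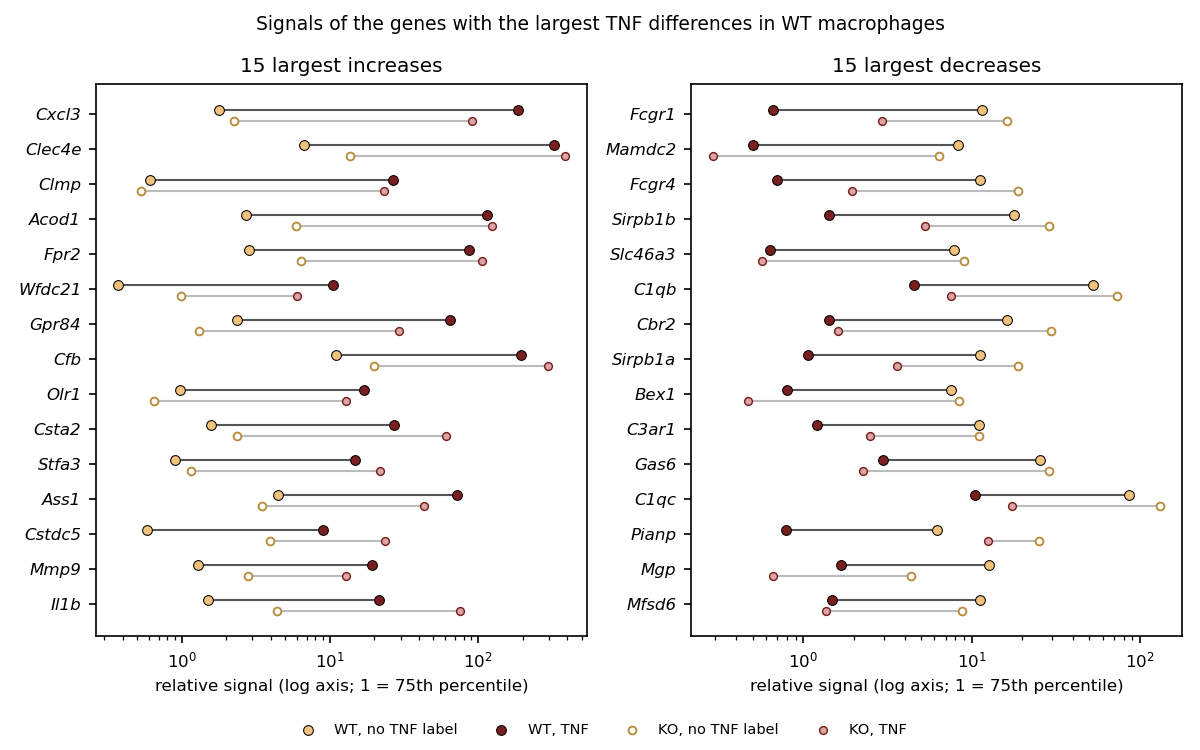
Relative signal on a log axis for the 15 largest increases (left) and 15 largest decreases (right) among brighter genes, with filled large points for the WT arrays and smaller points for the KO arrays, and a line joining the arrays without and with TNF. Cxcl3 runs from 1.80 to 186 and Fcgr1 from 11.5 to 0.665 in WT cells, and each KO line points the same way as the WT line.

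The genes of itaconate and arginine metabolism held several calls. Acod1, which makes the antimicrobial metabolite itaconate, went from 2.71 to 114, a 42.1-fold difference (20.9-fold in KO cells, from 5.92 to 124). Its probe lies at chr14:103455171-103455231 (mm9). Ass1, which recycles citrulline towards arginine, went from 4.44 to 71.8 (16.2-fold), and Slc7a2, an arginine transporter, from 0.255 to 6.21 (24.3-fold). Gch1, which makes the cofactor of nitric oxide synthase, was 4.08-fold higher. Nos2, the inducible synthase itself, was not past the rule in WT cells (0.907 and 1.18, log2 0.38) but was 3.24-fold higher in KO cells. Arg1, which uses the same substrate, went from 204 to 69.6 (log2 -1.55) in WT cells and had a log2 difference of -0.53 in KO cells. The arginine list, which also held Ptges, had 4 of 10 members higher and 1 lower, with a median of 0.62.

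Among glucose transporters, Slc2a6 was 4.92-fold and Slc2a1 2.36-fold higher and Slc2a3 was not past the rule (log2 -0.14). Also higher were the lactate exporter gene Slc16a3 (2.21-fold) and the glycolytic enzyme Pgk1 (2.07-fold). The last 2 were below 2-fold under quantile normalization, without scaling and with the intensity trend removed. The Pgk1 probe is placed on chromosome 3 (mm9), whereas the gene itself is X-linked, so which RNA it detected is uncertain. The glycolysis list had 4 of 20 members higher and 0 lower (median 0.49), and 25 oxidative phosphorylation genes had 0 past the rule (median 0.29).

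The list of antioxidant genes named for the factor Nrf2 had the highest list median, 1.08, and the activity of Nrf2 was not measured. All 18 members were above 0, 9 of them past the rule and 0 lower. Slc7a11, the cystine importer, went from 0.626 to 7.82 (12.5-fold), and Sod2, the mitochondrial superoxide dismutase, from 87.2 to 541 (6.20-fold). Hmox1, which degrades haem, was 2.62-fold and Txnrd1, thioredoxin reductase, 2.56-fold higher. In KO cells 5 of the 18 were past the rule and the median was 0.52. Nqo1, a quinone reductase, differed by 2.70-fold in WT cells and by 1.19-fold in KO cells. Cybb, the catalytic subunit of the phagocyte NADPH oxidase, was 4.01-fold higher, from 13.8 to 55.4.

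Protease and matrix genes followed. Mmp9, a gelatinase that neutrophils also carry in granules, went from 1.29 to 19.1 (14.9-fold, and 4.56-fold in KO cells). Serpinb2 (4.42-fold), an inhibitor of plasminogen activators, was higher, and so was Timp1 (2.51-fold), whereas Timp2 was lower (log2 -1.15 by the reported probe, -0.68 by the other). In this list 7 of 18 members were higher and 1 lower, with a median of 0.66. Icam1 and Vcam1, ligands for leukocyte integrins, were 6.50-fold and 3.06-fold higher. Collagens and fibroblast matrix genes had 0 of 16 higher and 5 lower, with a median of -0.25. Col6a1 stood at -1.60, Col6a2 at -1.64 and Lum at -1.94, whereas Col1a1 (-0.07) and Col1a2 (-0.04) were not past the rule. The mesothelial markers Upk3b (-2.98, and -1.45 with normexp) and Upk1b (-2.45, and -1.64) moved with them, and their part in this result was not tested.

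Several further genes with large increases lie outside these groups. Cst7, which encodes the lysosomal cystatin F, had the highest log2 difference of any list member, 6.96 (5.73 with normexp), from a relative signal of 0.0976 to 12.1. It was 47.7-fold higher in KO cells. Clmp, an adhesion molecule, went from 0.615 to 26.9 (43.7-fold, and 43.9-fold in KO cells). Gpr84, a receptor for medium-chain fatty acids, went from 2.36 to 64.7 (4.78 on the log2 scale, and 4.48 in KO cells). Olr1, a receptor for oxidised lipoprotein, differed by 17.6-fold and Wfdc21, of the whey acidic protein family, by 28.1-fold in WT and 6.05-fold in KO cells. Hp, the haemoglobin-binding protein haptoglobin, went from 36.6 to 409 (11.2-fold). The stefin genes Csta2 (17.2-fold), Stfa3 (16.5-fold) and Cstdc5 (15.4-fold), inhibitors of cysteine proteases, are near copies whose probes can detect one another's RNA, so which of them differed is uncertain.

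Some genes were well above background only on the array with TNF. Upp2, a uridine phosphorylase, was at least 47.5-fold higher, whereas neither KO array was well above background for it. Tnfsf4, the Ox40 ligand, was at least 17.2-fold higher (KO: at least 2.67-fold). Cd70, another costimulatory ligand of the TNF family, was at least 15.4-fold higher. The platelet collagen receptor gene Gp6 was at least 17.9-fold higher in WT and at least 17.0-fold in KO cells. Tnfaip8l3 (at least 17.7-fold), Sprr2d (at least 16.7-fold, one of a family of near copies), Glb1l3 (at least 21.1-fold) and Olfr715b (at least 26.4-fold) complete the 8 largest such bounds among genes with an approved-style symbol. With normexp background correction these 8 stayed past the rule at smaller sizes, with log2 values from 1.62 for Cd70 to 2.85 for Upp2. In KO cells Glb1l3 was not well above background and Olfr715b was not past the rule.

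On the lower side, a receptor for antibody had the largest decrease among those brighter genes. Fcgr1, the high-affinity IgG receptor, had a relative signal of 11.5 without and 0.665 with TNF, a 17.2-fold difference (log2 -4.11). Its probe lies at chr3:96086839-96086898 (mm9). In KO cells it went from 16.2 to 2.94, 5.51-fold lower. Fcgr4, an activating IgG receptor, went from 11.3 to 0.703 (16.1-fold lower, and 9.67-fold in KO cells). The inhibitory receptor Fcgr2b went the other way, from 11.8 to 30.4 (2.58-fold higher). Fcgr3, another activating IgG receptor, was not past the rule (17.4 and 18.2, log2 0.06). Fcgrt, the transport receptor for IgG, was lower (-1.71), and Fcer1g, the shared signalling chain, was not past the rule (0.87). Low-affinity Fcgr genes resemble each other, and probes may detect related RNA.

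Complement genes split by role. The C1q genes, whose products start the classical pathway, were lower together: C1qb went from 52.2 to 4.53 (11.5-fold), C1qc from 85.9 to 10.5 (8.19-fold) and C1qa from 44.0 to 6.31 (6.97-fold). In KO cells their log2 differences were -3.28, -2.92 and -2.61. The alternative pathway genes were higher, Cfb from 11.0 to 195 (17.7-fold, 14.9-fold in KO cells) and C3 from 46.4 to 129 (2.78-fold). The receptors C3ar1, C5ar2 (-2.47) and Vsig4 (-2.51) were lower too. Of 19 measured members 4 were higher and 8 lower, with a median of -0.71.

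Genes for the uptake of dying cells were mostly on the lower side. Gas6, the bridge between dying cells and the receptor Mertk, went from 25.3 to 2.99 (8.48-fold lower, and 12.7-fold in KO cells). Mertk went from 4.54 to 1.11 (-2.04), and Pros1, the related bridging protein, was at -1.40. The scavenger receptors Stab1 (-1.49) and Cd36 (-1.19) and the phosphatidylserine receptor Havcr2 (-2.04) were lower. Timd4, also a phosphatidylserine receptor, went against them, from 0.146 to 1.14 (7.83-fold higher, log2 2.97, and 2.16 with normexp; 6.05-fold in KO cells). Of 17 measured members 2 were higher and 8 lower, with a median of -0.64.

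Lipid genes had 0 of 17 members higher and 7 lower, with a median of -0.57. Fabp4, a fatty acid carrier, went from 119 to 24.6 (-2.27), Pparg, its transcriptional activator, from 11.2 to 3.41 (-1.72), and Apoe from 586 to 231 (-1.34). Plin2, which coats lipid droplets, and Abcg1, a cholesterol exporter, were at -1.02 and -1.13. Among myeloid transcription factors, Maf (12.6 and 1.99, -2.67), a factor of mature macrophages, Cebpa (-1.28) and the peritoneal factor Gata6 (-1.33) were lower, and Ets2 was higher (1.63). Resident peritoneal macrophage markers held 4 of 11 genes in each direction, with Cd5l (-2.03) and Vsig4 lower and Timd4 and Serpinb2 higher. Hpgds, the haematopoietic prostaglandin D synthase, went from 2.42 to 0.171 (14.2-fold lower, log2 -3.83, and -3.04 with normexp; 17.3-fold in KO cells). Ptges, which makes prostaglandin E, was higher, by 1.75 on the log2 scale with the reported probe and 5.44 with the other.

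Further decreases among the 15 largest were those of the lysosomal transporter Slc46a3 (12.5-fold), the carbonyl reductase Cbr2 (11.3-fold), Mamdc2 (16.6-fold), Bex1 (9.47-fold), Mgp, an inhibitor of calcification (7.60-fold), and Mfsd6 (7.56-fold by the reported probe, with 1 of its other probes at -0.57). Sirpb1b (12.5-fold) and Sirpb1a (10.4-fold) are near copies, so which of them differed is uncertain. Pianp went from 6.25 to 0.787 in WT cells (7.94-fold lower) and from 25.1 to 12.5 in KO cells, just inside 2-fold. Among genes with an approved-style symbol, the largest lower bound was that of Slco2b1, an organic anion transporter, at least 38.1-fold lower (log2 -3.70 in KO cells, where both arrays were above background). Pla2r1 (at least 20.7-fold), Slc9a9 (20.6), Bahcc1 (14.4), the prostaglandin-degrading enzyme gene Hpgd (14.1), Vmn2r75 (13.7), Arhgap19 (11.5) and Zbbx (log2 -3.32) followed, the last 2 lost with normexp background correction. The other 6 stayed past the rule there, led by Slco2b1 at -2.04, with Hpgd (-1.01), Vmn2r75 (-1.04) and Bahcc1 barely past 2-fold.

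Steap4, the gene deleted in KO mice, was on the lower side in WT cells. Its relative signal was 0.357 without and 0.114 with TNF, a log2 difference of -1.65. With normexp background correction the difference was -0.94 and not past the rule. In KO cells the same probe stood at 0.203 and 0.0379, the latter not well above background. The labels do not say which part of the gene was deleted, so the probe checks nothing about them.

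Several lists had few or no calls, beside 4.65% of all measured genes higher and 6.07% lower. Interferon-stimulated genes had 1 of 29 higher, Gbp2 (5.15-fold), and 2 lower, Mx1 (-1.88) and Oas3 (-1.07), with a median of 0.08. These counts lie near the shares over all genes. Cell cycle genes had 1 of 27 higher, Tyms (3.33-fold), and 0 lower. Cytosolic ribosomal protein genes had 0 of 25 in either direction. The plot of all lists shows these beside the antioxidant list and the complement list at its ends.

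**Figure D3:**
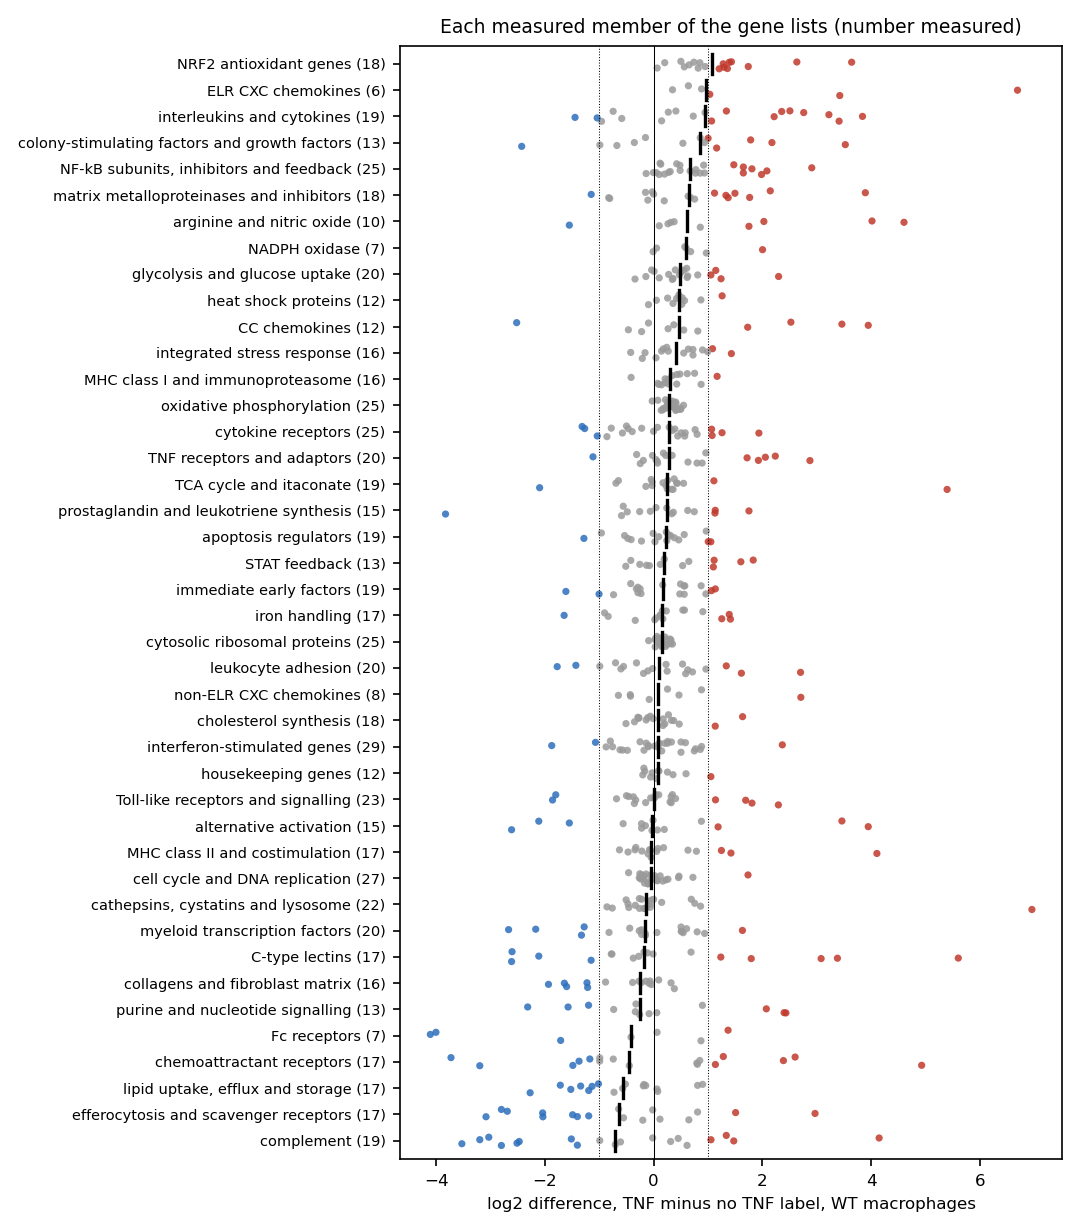
Log2 difference, TNF minus no TNF label, of every measured member of 42 gene lists in WT macrophages, with red for members higher and blue for members lower by the rule of size, grey for the rest and a black bar for each list's median. The lists run from the antioxidant genes (median 1.08) to complement (median -0.71), and most medians lie near the all-gene median of 0.03.

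**Figure D4:**
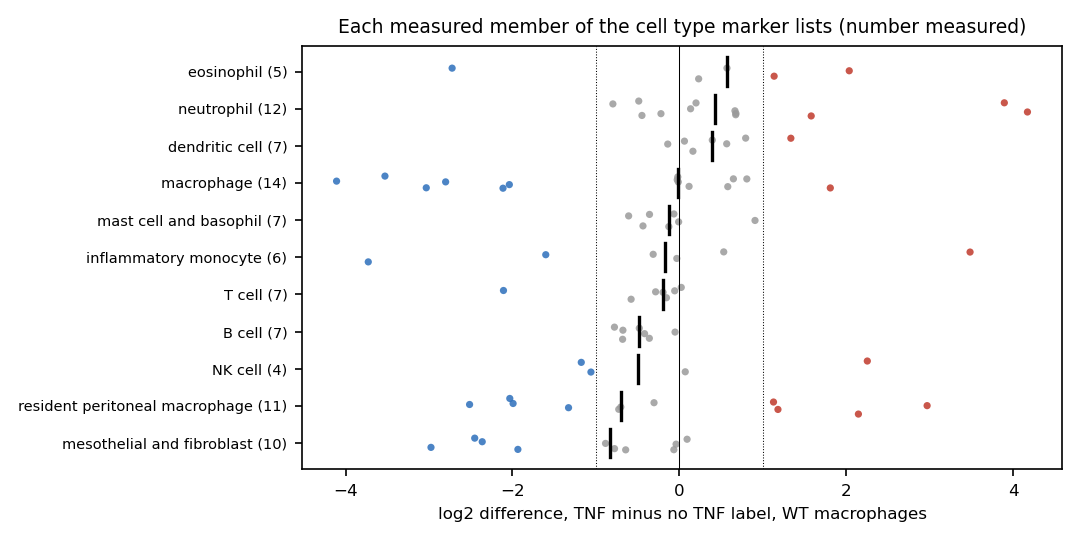
The same plot for 11 cell type marker lists, with the number of measured markers in brackets. The macrophage list has a median of -0.02 with 6 of 14 markers lower and 1 higher, and the mesothelial and fibroblast list has a median of -0.83.

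The KO pair gave a separate reading of the same treatment, with the limit that the labels number 3 mice for every array of a genotype. Of 20637 genes measured there, 936 (4.54%) were higher and 814 (3.94%) lower. Of the 982 genes higher in WT cells, 602 were higher in KO cells, 61.3% of the WT and 64.3% of the KO list. Of the 1282 lower, 557 were lower in KO cells, 43.4% of the WT and 68.4% of the KO list. The shared part differed with size and signal. Among genes at least 4-fold different and well above background on both WT arrays, 193 of 213 increases and 146 of 160 decreases were shared. Among bounds, 47 of 189 and 63 of 477 were shared. The lowest relative signal well above background was 0.0205 without and 0.0126 with TNF in WT cells, and 0.0254 and 0.0348 in KO cells. A bound from a dim signal could therefore reach a smaller size in the KO pair, and its part in the sharing was not tested. Genes brighter than that median level shared 76.9% of increases and 75.7% of decreases, and dimmer genes 52.8% and 37.4%. The difference between the pairs was not tested.

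**Figure D5:**
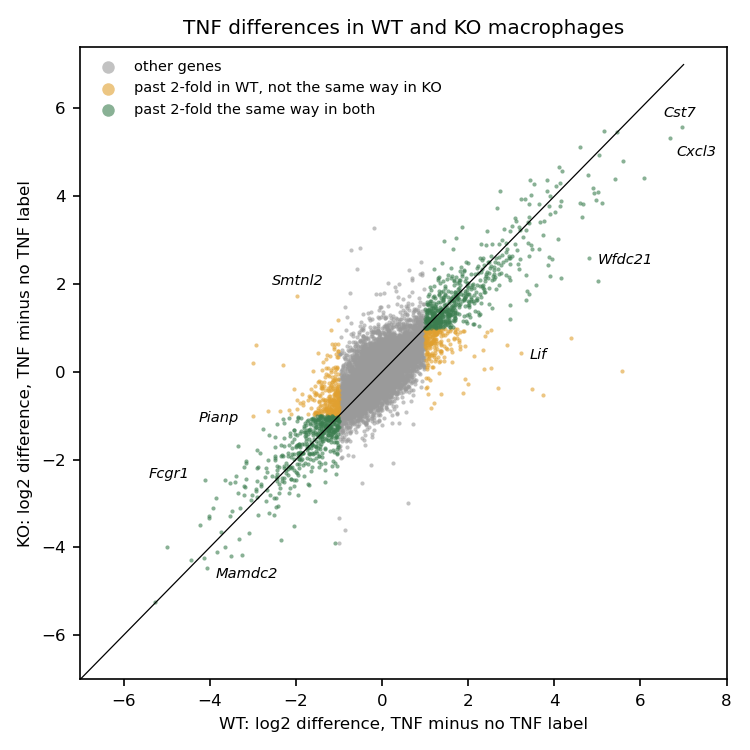
Log2 difference, TNF minus no TNF label, in WT (horizontal) and KO (vertical) macrophages for the 18771 genes well above background on all 4 arrays, with the line of equal difference. Of the 1468 genes past 2-fold in WT cells, 985 (green, 67.1%) were past 2-fold the same way in KO cells, and orange marks the rest, among them Lif and Pianp.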

How the data were processed

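Macrophage RNA was turned into Cy3-labelled cRNA for 1-colour arrays, per the labels' protocols. Per the file headers, the authors quantified the scans with Agilent Feature Extraction 10.7.3.1, and the deposited values are spot intensity on a linear scale, background-subtracted and detrended within each array, with no normalization between arrays. All arrays lay on 1 slide. Probe coordinates are on mm9.

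Of 62976 spots, 59305 were gene probes, and spots marked as outliers were left out (101 without and 121 with TNF). The intensity was turned to log2, averaged over the spots of each of 55680 probes, and lowered by the array's 75th percentile. Each gene was read from the probe brightest on average over the 4 macrophage arrays (30130 genes, 7279 with more than 1 probe). Names came through RefSeq genes of GRCm38.p6, used for names only. Other probes of called genes went the same way in 91.2% of 455 cases.

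The rule of size was 2-fold with signal well above background on the brighter array. For a bound, the dimmer signal was replaced by the lowest one well above background on its array where that was higher. Genes were named by rule: Steap4, Tnf, Tnfrsf1a and Tnfrsf1b, the 15 largest brighter genes and 8 largest bounds in each direction among genes with approved-style symbols, and up to 4 called members per direction of each of 42 function and 11 marker lists, with further members named beside counts and in comparison of WT with KO after their values were seen. Members and lists were chosen with earlier results of these data known. The calling script was tested on simulated data. Software was Python 3.11.15, pandas 2.3.3, R 4.3.3 and limma 3.58.1 (normexp, offset 50). Quantile normalization was done in Python. The other arrays of the series were not used here, and a few list members are counted but not reported by name.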

Additional observations from a re-analysis of the deposited data

Results flagged for a closer look

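A few genes were called in opposite directions in the WT and KO pairs, and this difference was not tested. Over all measured genes 9 were lower with TNF in WT and higher in KO cells, 4 of them with approved symbols. Smtnl2 stood at -1.98 on the log2 scale in WT and 1.73 in KO cells, well above background on all 4 arrays. Chrnb1 stood at -1.61 and 2.62, Galr3 at -1.44 and 1.62, and Sobp at -1.20 and 1.14, each with at least 1 array not well above background. All are dim genes, with relative signals of at most 0.241 on these arrays.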

How the results depend on the processing

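Increases and decreases numbered 574 and 426 with normexp background correction, 1761 and 1977 of 30130 genes with no filter on dim probes, and 443 and 466 at 3-fold. Requiring signal on both arrays left 793 increases and 805 decreases. Quantile normalization, spike-in scaling, no scaling, a median or trend scaling and the median over a gene's probes kept both counts within 1.5 times. Of 202 named genes past the rule, 151 kept their call under all 9 alternatives that measured them, and 33 lost it with normexp background correction, mostly dim or near 2-fold. Sign changes were sought only for list medians at least as far from 0 as that of leukocyte adhesion (0.10). Medians nearer 0 were not screened. Chemoattractant receptors changed sign with normexp (0.0153) and with signal required on both arrays (0.17). Immediate early factors did so without scaling (-0.0153) and without the filter (-0.0336), and iron handling without scaling (-0.0209). Leukocyte adhesion did so with quantile normalization (-0.0847), without scaling (-0.0767) and with the trend removed (-0.0668). Ribosomal proteins did so in the same order (-0.0652, -0.0265 and -0.0566), and NK cell markers with normexp (0.0292). The cause was not tested. Dim signal limits the 477 of 1282 decreases that are bounds. No paired analysis was possible because each group had 1 array.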

Other observations

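Called genes also lay side by side on the chromosomes. Among 15098 measured genes in map order, 27 runs of at least 3 neighbours were called the same way, 13 of them higher and 14 lower, with 86 genes in all. No share expected by position was computed. The interleukin 1 family genes Il1f9, Il1f6 and Il1rn on chromosome 2 were higher with log2 differences from 2.76 to 5.00, and all 3 were called the same way in KO cells. Has1, a hyaluronan synthase, lay beside Fpr1 and Fpr2 on chromosome 17 in a run from 2.60 to 4.93. The paired immunoglobulin-like receptor genes Pilra, Pilrb1 and Pilrb2 on chromosome 5 were higher by 2.13 to 2.71. Bst1 and Cd38, which encode NAD-consuming ectoenzymes, were higher with their neighbour Fbxl5 (1.27 to 2.04). On the lower side, the ribonuclease genes Ang, Rnase4 and Rnase6 on chromosome 14 ran from -2.08 to -1.52, and the C1q genes on chromosome 4 from -3.53 to -2.80. Near copies such as the stefin, Sprr2 and Ear genes also form runs, where probes may detect one another's RNA.

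A few genes of the lists differed in WT cells and not in KO cells, a difference that was not tested. Adora2b, an adenosine receptor, was 5.27-fold higher in WT and had a log2 difference of 0.82 in KO cells. F13a1, a coagulation factor subunit of macrophages, was at -1.60 and 0.01. Alox15, a lipoxygenase of resident peritoneal macrophages, was at 1.13 and -0.83. Il12rb1 was at 1.94 and -0.17, and its other probe gave -0.24 in WT cells. These were chosen after their values were seen.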
